A study of Rattus norvegicus with 54 samples.

Results

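Immediate early genes were followed around birth in 2 tissues of the Wistar rat, the liver and the skeletal muscle of the hind limb. They were taken as 9 named genes, *Fos*, *Fosb*, *Jun*, *Junb*, *Egr1*, *Atf3*, *Ier2*, *Ier3* and *Nr4a1*, and a probe set counted as a member where the platform annotation gave it the symbol of only that gene. This gave 8 probe sets for 8 genes, of 15310 probe sets with 1 symbol for 14506 genes, and *Fosb* was not analysed here. The samples were 54 GeneChip Rat Gene ST arrays of total RNA. Liver was measured at foetal days F16, F20 and F22, postnatal days P1 and P4 and in adults (P90), with 4 arrays each. Muscle was measured at F16, F18, F20, F22, P1 and P4, with 5 arrays each. No treatment is named for any group. Foetuses were obtained by Caesarean section from mothers that had just been killed, whereas P1, P4 and P90 animals were collected after birth. Birth and the way of collection therefore cannot be told apart in any comparison of a foetal with a postnatal time point. This holds for P1 against F22 and for P4 against F16. By the labels, every tissue went into liquid nitrogen without delay. The labels call the replicates biological, but they do not say which animals were littermates, so that p-values measure the spread between these arrays.

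Immediate early genes are switched on within minutes of a stimulus by transcription factors that already sit in the cell, so that their first rise needs no new protein. Many of them encode transcription factors themselves, and their RNAs decay fast. Growth factors, calcium, contraction, hormones that raise cyclic AMP, wounding and lack of oxygen induce them, and so can the handling of an animal or a delay before freezing. *Fos*, *Jun*, *Junb* and *Atf3* encode bZIP proteins that pair within or with the AP-1 complex. *Egr1* encodes a zinc finger factor, *Nr4a1* an orphan nuclear receptor, *Ier2* a small nuclear protein and *Ier3* a stress-inducible protein linked to cell survival.

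In the RefSeq annotation of rat assembly GRCr8, *Fos* (probe set 10886031) lies at chr6:110852188-110855054, *Jun* (10878112) at chr5:115009900-115012993 and *Junb* (10806585) at chr19:40081126-40082910. *Atf3* (10770710) lies at chr13:105274103-105331653, *Egr1* (10800919) at chr18:26737078-26740877 and *Nr4a1* (10899387) at chr7:134247153-134268044. *Ier2* (10806685) lies at chr19:40399373-40400897 and *Ier3* (10831077) at chr20:2933173-2934377, and *Junb* and *Ier2* are thus on the same chromosome.

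The stimuli above reach these genes through short DNA elements close to their starts, of which the CArG box binds serum response factor and the cyclic AMP response element (CRE) binds CREB and ATF proteins. The RefSeq promoter table (GRCr8) held 5 of the 9 genes, 4 of them measured. The 250 bases before the start, 5′ to 3′ on the plus strand, are shown for every measured member that the table held. Of these, *Egr1* and *Nr4a1* changed differently in the tissues both between F22 and P1 and between F16 and P4. With all arrays, *Junb* did so between F16 and P4 only, and it was called most often before birth. *Ier2* did not pass the F-test over the time points in either tissue. *Atf3* and *Fos*, which differed in the same way as *Egr1* and *Nr4a1*, had no entry. *Ier3*, called between F16 and P4, had no entry either. Capitals mark the matches to TGACGTCA (the full CRE), its shorter form TGACG (both strands), the CArG box, TGANTCA (the AP-1 site), the EGR sites GCGGGGGCG and GCGTGGGCG (both strands) and TATAAA (gene strand). The windows are chr7:134259888-134260137 for *Nr4a1*, whose start in this table lies inside the gene span given above, chr18:26736828-26737077 for *Egr1*, chr19:40399123-40399372 for *Ier2* and chr19:40080876-40081125 for *Junb*.
Nr4a1: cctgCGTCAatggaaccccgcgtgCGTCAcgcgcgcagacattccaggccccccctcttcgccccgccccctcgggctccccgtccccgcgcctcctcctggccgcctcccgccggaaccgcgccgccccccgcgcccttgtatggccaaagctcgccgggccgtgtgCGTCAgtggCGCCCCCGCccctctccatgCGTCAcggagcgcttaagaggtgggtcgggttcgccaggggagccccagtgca
Egr1: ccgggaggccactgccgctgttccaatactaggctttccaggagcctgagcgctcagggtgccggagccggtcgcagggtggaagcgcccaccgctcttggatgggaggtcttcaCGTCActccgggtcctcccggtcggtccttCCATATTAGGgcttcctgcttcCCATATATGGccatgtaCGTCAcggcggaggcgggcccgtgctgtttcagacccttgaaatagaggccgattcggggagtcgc
Ier2: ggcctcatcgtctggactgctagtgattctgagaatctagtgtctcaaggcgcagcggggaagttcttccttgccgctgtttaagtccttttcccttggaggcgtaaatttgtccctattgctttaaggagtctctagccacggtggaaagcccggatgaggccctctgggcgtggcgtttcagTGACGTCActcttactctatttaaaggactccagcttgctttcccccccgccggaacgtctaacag
Junb: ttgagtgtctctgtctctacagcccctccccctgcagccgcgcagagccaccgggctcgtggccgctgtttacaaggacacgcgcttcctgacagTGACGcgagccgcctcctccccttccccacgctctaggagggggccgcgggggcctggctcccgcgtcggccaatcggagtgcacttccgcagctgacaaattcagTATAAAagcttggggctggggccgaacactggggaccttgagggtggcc

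The *Nr4a1* stretch held 4 matches to the shorter CRE form, the nearest 53 bases before the start, and 1 EGR site. At least 4 such matches were found in 58 of 33469 promoters of the same length (0.173%), and at least 1 in 18.2%. The *Egr1* stretch held 2 CArG boxes, 105 and 83 bases before the start, and 2 shorter CRE forms. At least 2 CArG boxes were found in 7 of all promoters (0.0209%), and at least 1 in 1.5%. *Ier2* had a full CRE 66 bases before the start (found in 1.59% of promoters), which holds both of its shorter forms. *Junb* had a shorter CRE form and 1 TATAAA, which was present in 8.06% of promoters. No stretch held TGANTCA (6.34% of promoters), and EGR sites stood in 2.85% of promoters. These matches are descriptions of the letters only.

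The values are log2 signals after robust multi-array averaging (RMA), in which 1 unit is a doubling of the signal. The tissues were normalised separately, so that no level was set against the other tissue's. The median value of an array was 7.06 to 7.16 for liver and 7.98 to 8.07 for muscle. Hepatocyte and muscle genes fitted the labelled tissues: *Alb* (albumin) lay between 13.7 and 13.9 in liver arrays, and *Acta1* (skeletal actin) between 12.3 and 14.2 in muscle arrays. *Alb* also reached 12.2 in muscle and *Acta1* 11.8 in liver, and the source of this signal was not tested. By the correlation of all probe sets, 3 liver P1 arrays (replicates 1, 3 and 4) were slightly nearer to P4 and the muscle F22 replicate 5 to P1 than to their own group. Values without single arrays are given where they change a result.

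A change was called where its Benjamini-Hochberg adjusted p over all 15310 probe sets was at most 0.05 in limma. Over the 6 time points, 7 of 8 members differed in liver and 7 of 8 in muscle (moderated F-test). Among all probe sets 84.3% differed in liver and 75% in muscle, so that these shares are near the background. The exception was *Ier2* in both tissues, with adjusted p = 0.0956 in liver and 0.0665 in muscle. Without the adult arrays, 4 of 8 members differed in liver, and the share of all probe sets was not counted in that fit.

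In muscle, 5 of 8 members were higher at P1 than at F22: *Atf3*, *Nr4a1*, *Fos*, *Egr1* and *Jun*. Of all probe sets 9.5% were higher in this comparison, and 0 members were lower. The median difference of the 8 members was 0.42 on the log2 scale, against -0.01 over all probe sets. *Atf3*, a repressor and activator that is induced by many kinds of stress, measured 10.67, 9.66, 10.21, 9.50 and 10.55 in the 5 P1 arrays, against 8.68, 8.15, 8.81, 8.62 and 8.94 in the 5 F22 arrays. The lowest P1 array lay above the highest F22 array, and the difference was 1.48 ± 0.20 (SE), or 2.78-fold, with adjusted p = 4.26e-06 in limma.

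*Nr4a1*, which in muscle is known to respond to contraction and adrenergic signals, measured 9.55, 8.76, 9.02, 8.85 and 9.75 at P1, against 7.85, 7.70, 8.00, 7.95 and 8.28 at F22. These groups did not overlap either, and the difference was 1.23 ± 0.14 (2.34-fold, limma adjusted p = 3.28e-07). *Fos*, the classical partner of *Jun* in AP-1, measured 10.21, 8.99, 9.74, 9.52 and 10.16 at P1, against 8.60, 8.47, 8.56, 8.64 and 8.75 at F22. It was higher in every P1 array than in any F22 array, by 1.12 ± 0.15 on average (2.17-fold, limma adjusted p = 5.44e-06). *Egr1* measured 11.14, 10.31, 11.10, 10.71 and 11.28 at P1, against 10.34, 10.22, 10.17, 10.26 and 10.68 at F22. The difference of 0.58 ± 0.14 passed the test (1.49-fold, limma adjusted p = 0.00347), but P1 replicate 2 lay below 2 of the F22 arrays.

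Without F22 replicate 5, the array nearer to P1, the same 5 genes were called, with *Atf3* at 1.55, *Nr4a1* at 1.31, *Fos* at 1.16, *Egr1* at 0.66 and *Jun* at 0.31. *Jun* differed by only 0.27 ± 0.08 between P1 and F22 in muscle (limma adjusted p = 0.0154), with overlapping groups. Without F22 replicate 1 its difference was 0.23 (adjusted p = 0.0534) and without P1 replicate 1 it was 0.23 (adjusted p = 0.0528), so that leaving out either array moved this call just past the threshold. The other 3 members were not called. Their differences were 0.15 for *Junb* (95% interval -0.08 to 0.38), 0.18 for *Ier2* (-0.005 to 0.36) and 0.26 for *Ier3* (-0.0002 to 0.52).

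**Figure D1:**
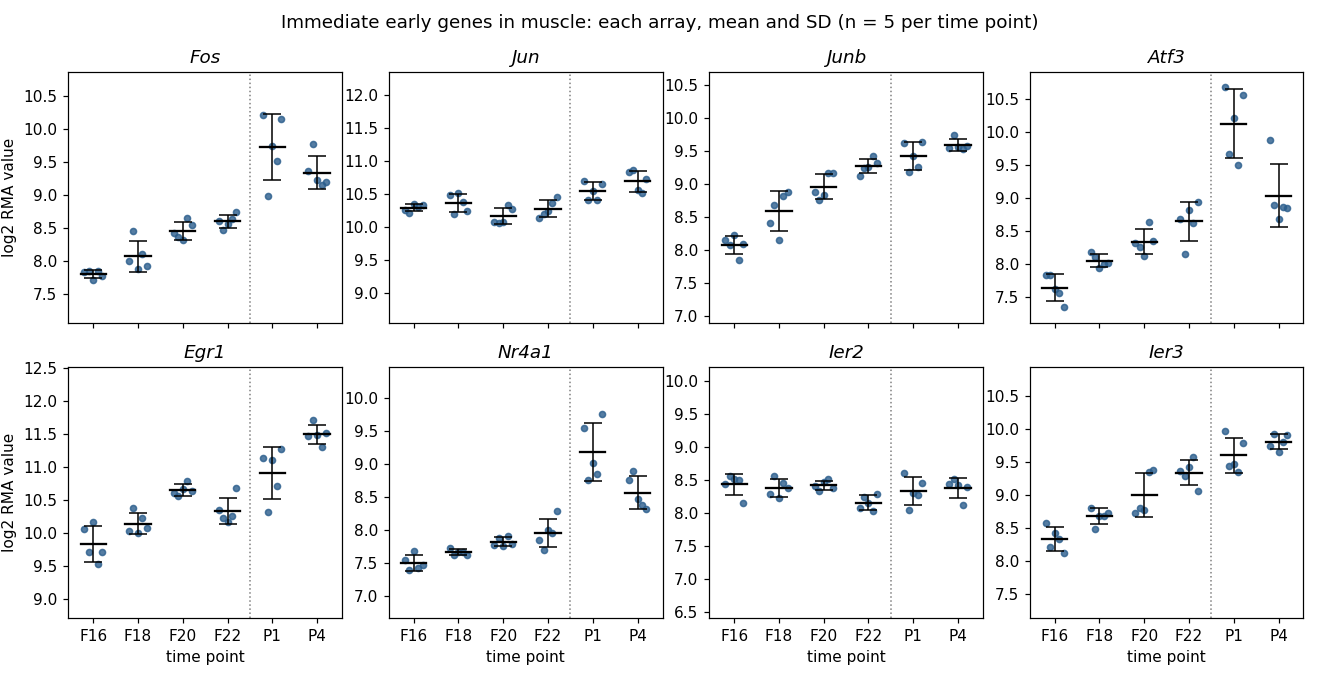
Log2 RMA values of the 8 immediate early genes in muscle (vertical axis; all panels span the same number of log2 units) at F16 to P4 (horizontal axis), with points for the 5 arrays of a time point, a bar for their mean and whiskers for the SD. *Fos*, *Atf3* and *Nr4a1* stand highest at P1, whereas *Junb*, *Egr1*, *Ier3* and *Jun* are highest at P4, and the dotted line marks birth.

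Between P4 and P1 the muscle members parted. *Atf3* fell to 9.88, 8.89, 8.68, 8.86 and 8.84 in the P4 arrays, against a P1 mean of 10.12, a difference of -1.09 ± 0.20 (limma adjusted p = 9.82e-05). P4 replicate 1 alone reached into the P1 range, and without it the difference was -1.30. *Nr4a1* fell by 0.62 ± 0.14 to 8.56 ± 0.25 at P4 (SD, n = 5), against 9.19 ± 0.44 at P1 (adjusted p = 0.000805). *Egr1* rose further, to between 11.30 and 11.70 at P4 against 10.31 to 11.28 at P1, by 0.58 ± 0.14 (adjusted p = 0.00149), and these groups did not overlap. *Fos* differed by -0.38 (adjusted p = 0.0553). Thus 1 member was higher and 2 were lower, and among all probe sets 19.2% were higher and 14.7% lower, so that these counts do not stand out. Erythroid markers (8 of 9 higher, median 1.37), granulocyte markers (9 of 11 higher, median 1.55) and hypoxia response genes (8 of 12 lower, median -0.46) moved in the same comparison, and their part in the members' changes was not tested.

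Before birth, *Junb*, an AP-1 subunit that often restrains *Jun*, was called higher at each step, by 0.51 ± 0.11 at F18 against F16, by 0.37 ± 0.11 at F20 against F18 and by 0.31 ± 0.11 at F22 against F20 (limma adjusted p = 0.000763, 0.0131 and 0.0496). *Ier3* was higher at F18 than at F16 by 0.34 ± 0.13 (adjusted p = 0.0387), and *Egr1* at F20 than at F18 by 0.51 ± 0.14 (adjusted p = 0.00547). *Ier2* was lower at F22 than at F20 by 0.26 on the log2 scale (-0.26 ± 0.09, adjusted p = 0.0397). This made 2 of 8 members higher at F18 (background 14.1%), 2 higher at F20 (14.6%), and 1 higher (6.02%) and 1 lower (13.8%) at F22. At F18 against F16, keratinocyte markers (4 of 4 higher, median 2.20), muscle fibre markers (8 of 9, median 1.08), fibroblast markers (10 of 12, median 0.91) and endothelial markers (6 of 7, median 0.40) were higher too. The mean level of the keratinocyte markers lay between 11.7 and 12.2 at F18, against 9.07 to 10.1 at F16. At F20 against F18, 8 of 9 muscle fibre, 7 of 11 macrophage and 3 of 4 keratinocyte markers were higher, and at F22 against F20, 7 of 9 muscle fibre and 5 of 11 granulocyte markers. The part of these cells in the members' changes was not tested. Several of these calls lie near the threshold and depend on which arrays are kept. That of *Ier3* at F18 was lost without F16 replicate 2, 4 or 5 or F18 replicate 1, 3, 4 or 5 (adjusted p = 0.0614 to 0.0986). That of *Ier2* at F22 was lost without F20 replicate 1, 3, 4 or 5 or F22 replicate 1, 3 or 4 (0.0529 to 0.102). That of *Junb* at F22 was lost without F20 replicate 1, 2 or 3 or F22 replicate 2, 3, 4 or 5 (0.0675 to 0.138), and also without F16 replicate 1, 2, 3 or 5, F18 replicate 1 or 2, P1 replicate 3 or 4 or P4 replicate 1, 3, 4 or 5 (0.0504 to 0.0557). Without these arrays of other time points its difference stayed at 0.31, and only the adjusted p moved. That of *Junb* at F20 was lost without F18 replicate 3 (adjusted p = 0.0662) or F20 replicate 4 (adjusted p = 0.0509).

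Over the whole series of muscle arrays, 7 of 8 members were higher at P4 than at F16 (background 26.7%). The differences were 1.66 for *Egr1* (3.16-fold), 1.54 for *Fos* (2.90-fold), 1.51 for *Junb* (2.85-fold), 1.47 for *Ier3* (2.78-fold), 1.40 for *Atf3* (2.63-fold), 1.06 for *Nr4a1* (2.09-fold) and 0.40 for *Jun* (1.32-fold). The highest limma adjusted p of these 7 was 5.24e-05, for *Jun*. *Ier2* differed by -0.06 (95% interval -0.24 to 0.13). In the same comparison, keratinocyte markers (4 of 4 higher, median 2.77), muscle fibre markers (8 of 9, median 2.09), granulocyte markers (9 of 11, median 1.87), erythroid markers (9 of 9, median 1.65), fibroblast markers (11 of 12 higher and 1 lower, median 1.53) and macrophage markers (10 of 11, median 1.42) were higher. The mean level of granulocyte markers lay between 8.36 and 8.74 at P4, against 6.54 to 6.61 at F16, and that of keratinocyte markers between 12.1 and 12.4 at P4, against 9.07 to 10.1 at F16. The part of these cells in the members' differences was not tested.

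In liver the same step of birth looked different. *Egr1* and *Atf3* were lower at P1 than at F22 and *Ier3* was higher, so that 1 of 8 members was higher (background 14.8%) and 2 were lower (background 21.9%). *Egr1* fell to 10.02, 8.51, 9.31 and 9.77 in the 4 P1 arrays, against 10.68, 10.67, 9.81 and 10.68 in the 4 F22 arrays. Only P1 replicate 1 overlapped with the lowest F22 array, and the difference was -1.06 ± 0.28 (2.08-fold lower, limma adjusted p = 0.00372). *Atf3* measured 7.69, 6.48, 6.75 and 6.58 at P1, against 7.30, 7.85, 7.56 and 7.38 at F22. P1 replicate 1 was as high as the F22 arrays while the other 3 P1 arrays lay below all of them, and the difference was -0.65 ± 0.19 (limma adjusted p = 0.00785).

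*Ier3* measured 8.75, 8.92, 9.33 and 9.28 at P1, against 8.38, 8.31, 8.47 and 8.41 at F22. The groups did not overlap, and the difference was 0.68 ± 0.12 (1.60-fold, limma adjusted p = 9.61e-05). The 5 other members were not called: the differences ranged from -0.27 for *Junb* to 0.31 for *Jun*, with 95% intervals of -0.70 to 0.16 for *Junb*, -0.11 to 0.74 for *Jun*, -0.33 to 0.15 for *Fos*, -0.11 to 0.40 for *Ier2* and -0.01 to 0.38 for *Nr4a1*. The median difference over the members was 0.03, and over all probe sets it was 0.004. Erythroid markers were lower at P1 in the same comparison (9 of 9, median -0.78), and their mean level lay between 10.6 and 10.8 in P1 arrays against 11.3 to 11.6 in F22 arrays. Whether fewer blood-forming cells or less RNA per cell stand behind a difference cannot be told apart in bulk tissue, and the part of these cells in the members' changes was not tested. Of 9 muscle fibre markers, 3 were lower at P1 than at F22 in liver and 0 were higher (median -0.98). Their mean level lay between 6.73 and 6.78 in P1 arrays, against 6.80 to 9.19 in F22 arrays. The part of this muscle signal in the members' changes was not tested either. Of 12 hypoxia response genes in liver, 2 were higher and 4 lower at P1 than at F22 (median -0.14). Among all probe sets 14.8% were higher and 21.9% lower. The largest differences were -1.53 for *Slc2a1* and -1.32 for *Ndrg1*, while *Vegfa* was higher by 0.56. The part of these genes' response in the members' changes was not tested.

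The liver P1 group was split, because replicate 1 stood above the others. Its array name in the labels ends in a number and those of replicates 2, 3 and 4 end in a letter, and what this ending means is not explained there. *Jun* measured 9.65 in that array and 8.58, 8.35 and 8.39 in the other 3, and *Junb* measured 9.16 there and 7.95, 8.31 and 7.96 in the others. Replicate 1 lay above its group mean in 7 of 8 members, by 0.91 for *Jun* and by 0.82 each for *Junb* and *Atf3*, but below it by 0.32 for *Ier3*. Replicate 2 lay below the group mean in 8 of 8, as 0 members were above it. The same replicate 1 was 0.54 above its group in the mean of 12 hypoxia response genes, at -0.25 from it in heat shock genes and 0.32 below it in granulocyte markers, and the part of any of these in the members' values was not tested. Without replicate 1, *Junb* was called lower at P1 than at F22, by -0.54 (adjusted p = 0.0113), and the differences were -1.26 for *Egr1*, -0.92 for *Atf3* and 0.79 for *Ier3*, all still called, whereas that of *Jun* was 0.01. Without replicate 3 or without replicate 4, the other arrays near to P4, the same 3 genes were called as with all arrays, with *Egr1* at -1.03 and -1.18, *Atf3* at -0.60 and -0.55 and *Ier3* at 0.59 and 0.61.

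**Figure D2:**
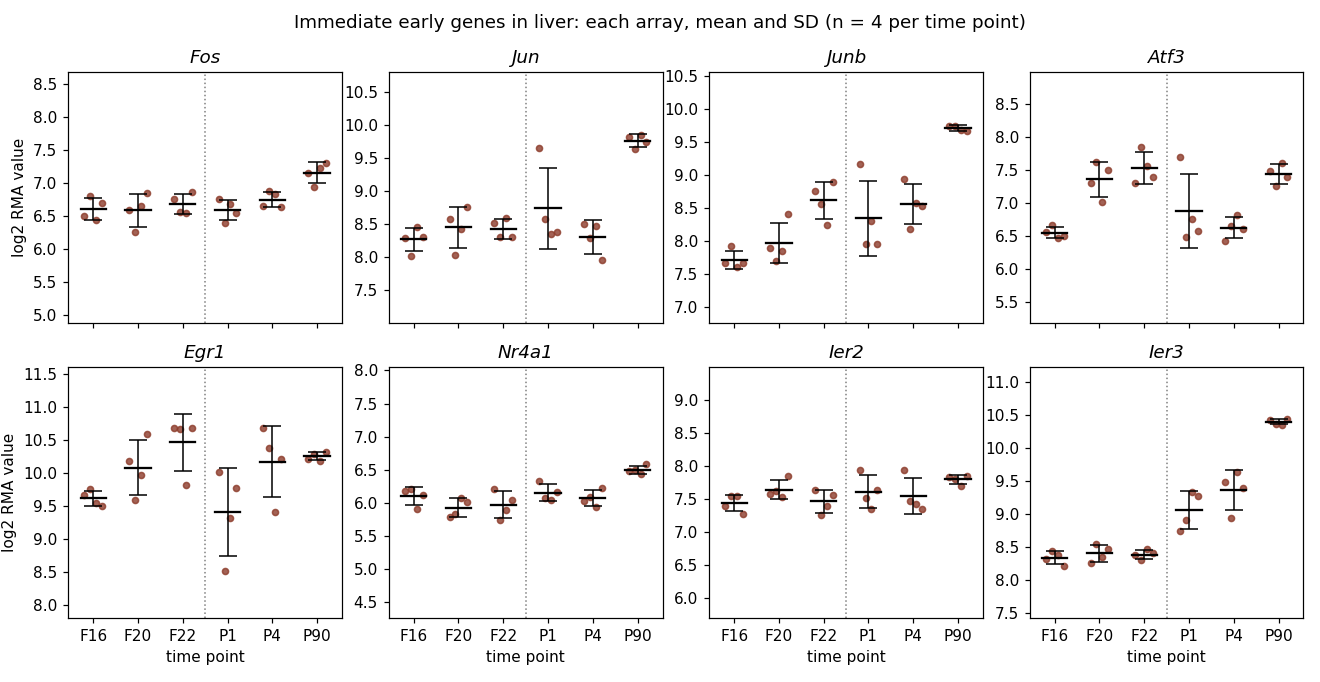
Log2 RMA values of the 8 immediate early genes in liver (vertical axis; all panels span the same number of log2 units) at F16 to P90 (horizontal axis), with points for the 4 arrays of a time point, a bar for their mean and whiskers for the SD. The adult arrays (P90) lie close together and high for *Jun*, *Junb* and *Ier3*, while the P1 arrays scatter, with replicate 1 (the leftmost point) apart for *Jun*, *Junb* and *Atf3*.

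Between P4 and P1, 0 of 8 members were called in liver, and 11% of all probe sets were called in either direction. At an unadjusted p of at most 0.05 there were 3 members, and the share of all probe sets at that threshold was not counted. Without P1 replicate 1, 2 members were called at the adjusted threshold, *Egr1* (0.97 higher at P4, limma adjusted p = 0.0216) and *Junb* (0.49 higher, adjusted p = 0.0499). Before birth, *Atf3* was the only member called at F20 against F16, with 7.29, 7.62, 7.01 and 7.50 at F20 against 6.56, 6.66, 6.47 and 6.50 at F16. These groups did not overlap, and the difference was 0.81 ± 0.19 (limma adjusted p = 0.00264; 9.22% of all probe sets were higher). *Junb* was the only member called at F22 against F20, by 0.65 ± 0.21 (adjusted p = 0.0151; background 15.3%), and this call was lost without F20 replicate 2 (adjusted p = 0.0557) or F22 replicate 4 (adjusted p = 0.0572). Between P4 and F16, *Ier3* (1.02 ± 0.12) and *Junb* (0.85 ± 0.21) were higher in liver, 2 of 8 members against a background of 23.1%. Markers of other cells moved in these comparisons as well. At F20 against F16, macrophage markers (11 of 11, median 0.95) and granulocyte markers (8 of 11, median 1.06) were higher. At F22 against F20, granulocyte markers (11 of 11, median 1.55), macrophage markers (11 of 11, median 0.74) and endothelial markers (7 of 7, median 0.43) were higher and 7 of 9 erythroid markers were lower, and the mean level of granulocyte markers lay between 9.45 and 9.97 at F22, against 7.88 to 8.26 at F20. At P4 against F16, the same 3 lists were higher in 11 of 11, 11 of 11 and 7 of 7 markers, and 9 of 9 erythroid markers were lower. The part of these cells in the members' changes was not tested. The order of the liver means, low to high, was F20, P1, F16, F22, P4 and P90 for *Fos*, and its 5 earlier groups overlapped.

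In the adult liver, 6 of 8 members were higher than at P4 (background 28.8%). *Jun* measured 9.83, 9.64, 9.85 and 9.75 at P90, against 8.51, 8.29, 8.48 and 7.95 at P4, a difference of 1.46 ± 0.20 (2.75-fold, limma adjusted p = 2.08e-06). *Junb* measured 9.74, 9.75, 9.68 and 9.66 at P90, against 8.95, 8.19, 8.58 and 8.54 at P4, a difference of 1.15 ± 0.21 (2.21-fold, adjusted p = 5.82e-05). Every adult array lay above every P4 array for both genes. *Ier3* differed by 1.03 ± 0.12 (2.04-fold, limma adjusted p = 1.67e-07) and *Atf3* by 0.81 ± 0.19 (adjusted p = 0.000782). *Nr4a1* differed by 0.43 ± 0.09 (adjusted p = 0.000481) and *Fos* by 0.41 ± 0.11 (adjusted p = 0.00445). *Egr1*, in contrast, averaged 10.25 ± 0.06 at P90 and 10.16 ± 0.54 at P4 (SD, n = 4 each), a difference of 0.08 ± 0.28.

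Makeup also differed strongly between these groups of livers. The mean of 9 erythroid markers lay between 7.02 and 7.21 in adult arrays, against 10.9 to 11.1 at P4 (9 of 9 lower, median -3.49), and granulocyte markers lay between 6.55 and 6.67 at P90, against 9.39 to 9.53 at P4 (10 of 11 lower, median -3.17). The part of blood-forming cells in the members' differences was not tested. Adults had standard chow, and age and diet cannot be told apart in this comparison.

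The change between P1 and F22 was tested between the tissues in 1 fit of all 54 arrays, taken as independent. The labels do not say whether liver and muscle of a time point came from the same animals. The change was lower in liver than in muscle for 4 of 8 members, against 19.5% of all probe sets. The liver change minus the muscle change was -2.12 ± 0.29 for *Atf3* (limma adjusted p = 8.99e-08), -1.63 ± 0.30 for *Egr1* (adjusted p = 2.71e-05), -1.21 ± 0.21 for *Fos* (adjusted p = 7.02e-06) and -1.05 ± 0.18 for *Nr4a1* (adjusted p = 9.94e-06). *Atf3* and *Egr1* were called lower in liver and higher in muscle, while *Fos* and *Nr4a1* were called in muscle and not in liver. Liver signals of *Fos* and *Nr4a1* were low, averaging 6.73 and 6.12 over the liver arrays, and that of *Atf3* averaged 7.06. Of all probe sets, 31.8%, 20.7% and 37.3% had a lower liver mean. The part of low signal in the tissue differences of *Fos*, *Nr4a1* and *Atf3* was not tested. For *Ier3* the difference ran the other way, at 0.42 ± 0.18, and missed the threshold (adjusted p = 0.0804). Without liver P1 replicate 1, *Junb* (-0.70) and *Ier3* (0.52) were called too. *Jun* (0.04 ± 0.21), *Ier2* (-0.03 ± 0.15) and *Junb* (-0.42 ± 0.23) were not called with all arrays.

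For the change between P4 and F16, 6 of 8 members were lower in liver than in muscle (background 33%). The differences of the changes were -1.39 ± 0.21 for *Fos*, -1.32 ± 0.29 for *Atf3*, -1.11 ± 0.30 for *Egr1*, -1.10 ± 0.18 for *Nr4a1*, -0.66 ± 0.23 for *Junb* and -0.45 ± 0.18 for *Ier3*. The last of these had an adjusted p of 0.0338 and was lost without liver F16 replicate 2 or 3, liver P4 replicate 2, muscle F16 replicate 2 or 5 or muscle P4 replicate 2 or 5 (0.0534 to 0.148), whereas the others had adjusted p of 0.0122 or below.

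**Figure D3:**
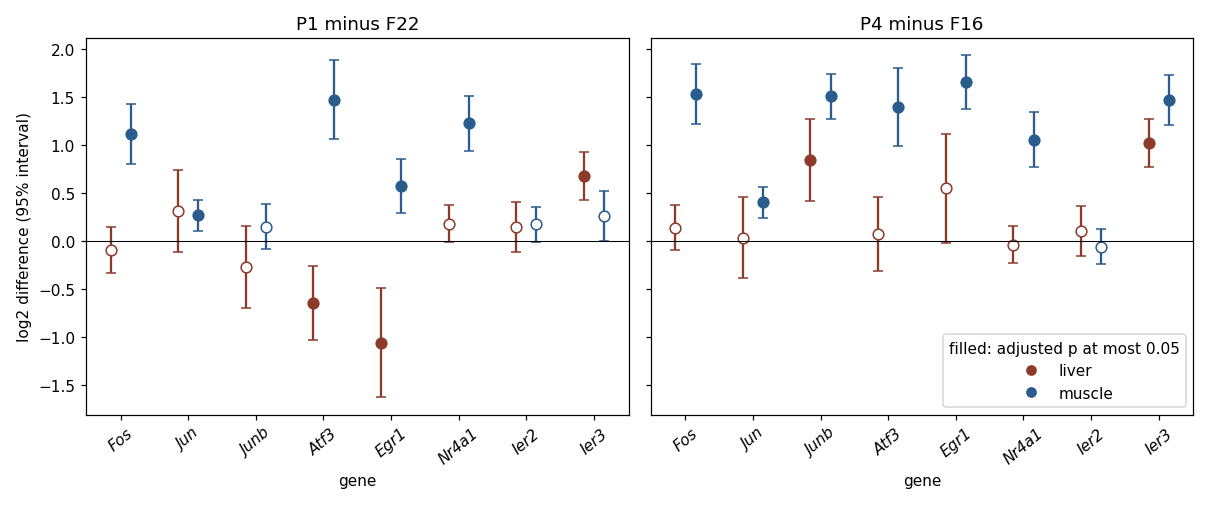
Log2 differences of the 8 genes (horizontal axis) between P1 and F22 (left) and between P4 and F16 (right), with liver to the left of muscle for each gene, 95% intervals as bars and filled points where the adjusted p was at most 0.05. After birth *Atf3* stood at -0.65 in liver and 1.48 in muscle, *Egr1* at -1.06 and 0.58, and *Ier3* at 0.68 and 0.26.

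The spread between arrays of a group was wide for most of these genes. The SD within groups, pooled over the time points, was larger than that of 75% of all probe sets for 7 of 8 members in liver and 6 of 8 in muscle. In liver it was 0.43 for *Egr1*, more than in 98.8% of probe sets, and 0.32 for *Junb* and *Jun* (97.0% and 96.9%), against a median of 0.12 over all probe sets. In muscle it was 0.34 for *Atf3* (98.1%), 0.26 for *Fos* (95.5%) and 0.23 for *Nr4a1* and *Egr1* (93.8% each), against 0.12. *Nr4a1* in liver (0.14, 63.5%) and *Jun* and *Ier2* in muscle (0.13 and 0.15, 54.9% and 69.6%) were nearer to the ordinary probe set.

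The spread was not even over the time points. The P1 arrays of muscle had an SD of 0.52 for *Atf3*, 0.50 for *Fos* and 0.44 for *Nr4a1*, each above 99% of probe sets in that group, whereas the F16 arrays had 0.06 for *Fos*. In adult livers the SDs were 0.04 for *Junb* and *Ier3* and 0.06 for *Egr1*, but 0.16 for *Fos*, above 87.5% of probe sets. *Egr1* scattered most in the livers of pups, with 8.51 to 10.02 at P1 and 9.41 to 10.67 at P4, and its SD of 0.54 at P4 exceeded that of 99.6% of probe sets. The median SD over all probe sets was 0.13 in liver P1 arrays and 0.10 in muscle P1 arrays.

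The members also moved together from array to array within a group. In muscle, replicates 1 and 5 of P1 lay above the group mean in 8 of 8 members and replicates 2 and 4 in 0 of 8. The mean deviation over the members was 0.33 and 0.30 in replicates 1 and 5, and -0.38 and -0.25 in replicates 2 and 4. Replicate 2 also had 0.55 more of the hepatocyte markers than its group, and the part of this in its values was not tested. At F20, muscle replicate 4 was above the mean in 8 of 8 members and replicate 1 in 0 of 8, and at P4 replicate 4 was above it in 0 of 8.

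Over all 30 muscle arrays, the Pearson r of the deviations from the group means had a median of 0.51 over the 28 pairs of members, and all 28 were above 0. The highest was that of *Fos* with *Nr4a1* (0.76), followed by *Fos* with *Egr1* (0.75), and the lowest that of *Ier2* with *Ier3* (0.20). Without the P1 arrays the median was 0.31 over 25 arrays. Over the 24 liver arrays the median was 0.33 and 20 of 28 pairs were above 0, with *Junb* and *Ier2* at 0.67, *Junb* and *Egr1* at 0.62 and *Jun* and *Ier3* at -0.42 (0.02 without P1). It was 0.20 over 20 arrays without P1, and leaving out single arrays moved it between 0.15 and 0.38. All 7 liver pairs with *Ier3* were below 0 over the 24 arrays, but this rests on the P1 arrays: without them 4 of the 7 were above 0, the highest with *Junb* (0.38). For comparison, the median r of a member with all probe sets was -0.008 in liver and 0.03 in muscle. These correlations describe genes read on the same array, and so from the same RNA preparation, and carry no test.

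**Figure D4:**
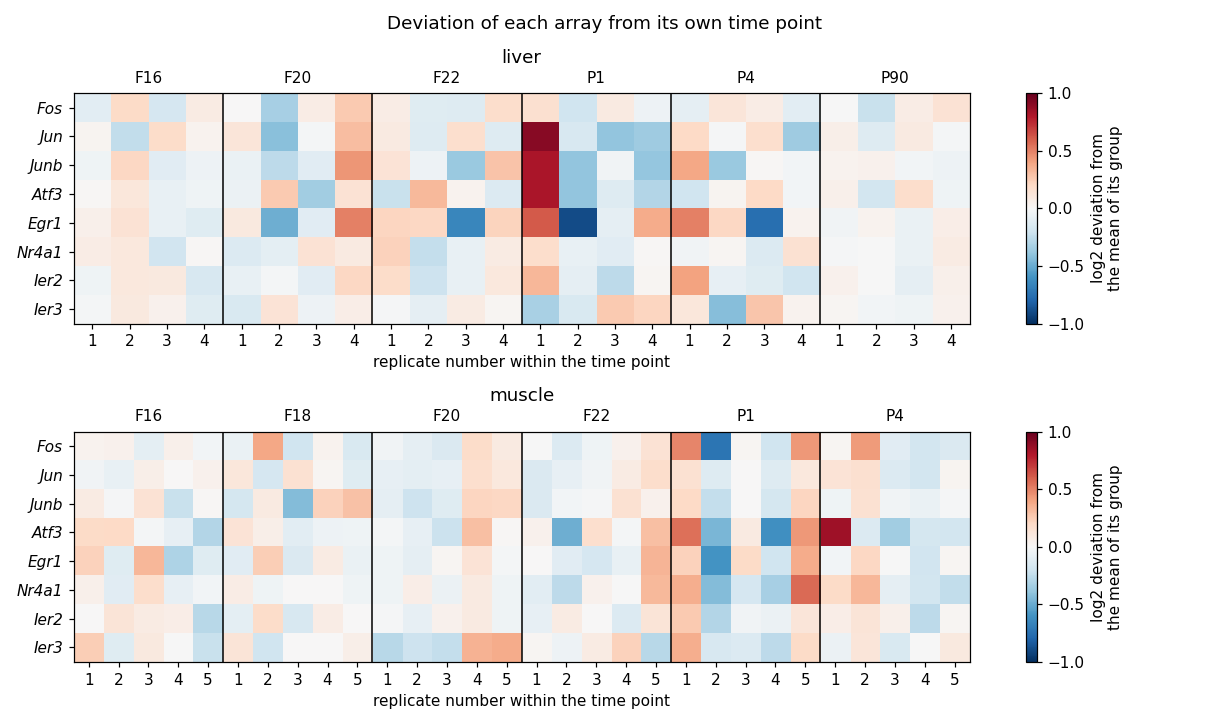
Deviation of each array (columns, numbered within their time point) from the mean of its own group for the 8 genes (rows), in liver (top) and muscle (bottom), in log2 units, with red above and blue below the mean. Whole columns share a colour in muscle at P1, where replicates 1 and 5 are above the mean in 8 of 8 genes, and liver P1 replicate 1 stands 0.91 above its group for *Jun*.

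Among the genes that are no members, *Zfp36* followed the members' mean deviation closely in both tissues. It encodes tristetraprolin, which binds AU-rich elements and speeds the decay of short-lived RNAs. Its r was 0.85 over 24 liver arrays and 0.81 over 30 muscle arrays, and 0.83 and 0.77 without P1. In liver the 5 most alike of 14498 genes were *Zfyve27* (0.86), *Ncald* (0.86), *Zfp36*, *Eloa* (0.85) and *Gtpbp6* (0.84), and all but *Zfp36* dropped to between 0.56 and 0.67 without P1. In muscle they were *Unc5b* (0.83), *Apold1* (0.82), *Zfp36*, *Ccn1* (0.81) and *Ell* (0.80), and these were between 0.57 and 0.80 without P1.

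Other genes of the same response were read from lists of known members. Of 37 other immediate early genes, 20 were higher and 1 lower at P1 than at F22 in muscle. Of all 15310 probe sets, 1455 were higher there (9.5%) and 1351 lower. The median of the 37 was 0.29, against -0.01 over all probe sets. Among the higher were *Per1*, a clock gene with rapid induction (0.95 ± 0.06), and *Ccn1*, a secreted matrix protein (0.78 ± 0.11). *Trib1*, a pseudokinase (0.77 ± 0.08), and *Sgk1*, a kinase induced by glucocorticoids (0.75 ± 0.06), were higher too. In liver 11 of the 37 were higher and 3 lower (median 0.10), against 14.8% and 21.9% of all probe sets. Those higher included *Gadd45b* (1.10 ± 0.24), *Trib1* (1.05 ± 0.13), *Plk3* (0.83 ± 0.16) and *Sik1* (0.75 ± 0.21). *Trib1* was thus higher at P1 in both tissues.

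Of 18 inhibitors that immediate early signalling switches on to end itself, 9 were higher and 2 lower at P1 than at F22 in muscle, against 9.5% higher among all probe sets. The higher ones included *Nfkbia*, the inhibitor of NF-κB (0.98 ± 0.07), *Dusp1*, a phosphatase of MAP kinases (0.87 ± 0.10), *Zfp36* (0.66 ± 0.13) and *Errfi1*, an inhibitor of EGF receptors (0.44 ± 0.07). In liver 2 were higher (*Dusp10* and *Zfp36l1*) and 1 lower (*Nab2*, a corepressor of EGR factors, -0.32 ± 0.09), against 14.8% and 21.9% of all probe sets. Of 10 other AP-1 subunits, 4 were higher in muscle (background 9.5%), *Jdp2*, *Jund*, *Fosl2* and *Mafk*, by 0.39 to 0.43, and 0 were lower. In liver *Fosl2* was higher (0.33 ± 0.13) and *Atf2* and *Jdp2* were lower (-0.31 ± 0.06 and -0.29 ± 0.12), against the same liver shares.

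Of 11 factors and kinases upstream, 1 was higher and 2 were lower in muscle, where 1455 of all 15310 probe sets were higher and 1351 lower. *Crem*, which codes for cyclic AMP-responsive factors, was higher (0.24 ± 0.06), and *Creb1* (-0.38 ± 0.06) and *Srf* (-0.26 ± 0.09), the genes of the CREB and serum response factors, were lower. In liver *Crem* was higher by 1.03 ± 0.24 and *Creb1* lower (-0.65 ± 0.13). In all, 3 of the 11 were higher and 1 lower there, against 14.8% and 21.9% of all probe sets. Of 13 heat shock genes, 1 was higher in muscle (*Bag3*, 0.35 ± 0.09) and 0 were lower. In liver 1 was higher and 5 were lower, against the same liver shares.

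Markers of other cells and of low oxygen were read beside the muscle rise. At P1 against F22 in muscle, 0 of 11 granulocyte, 0 of 9 erythroid, 0 of 12 hepatocyte and 0 of 4 keratinocyte markers passed the test in either direction, while 2 of 11 macrophage, 1 of 7 endothelial and 2 of 12 fibroblast markers were higher and 1 of 9 muscle fibre markers was lower. Hypoxia response genes were mixed, with 5 of 12 higher (background 9.5%), *Bnip3* by 0.55 and *Adm* by 0.53 among them, and 2 lower. Their mean level lay between 9.91 and 10.1 in P1 arrays, against 9.81 to 9.96 in F22 arrays. Over the 30 muscle arrays the mean deviation of hypoxia genes had r = 0.39 with that of the members and that of heat shock genes r = 0.70, and over the 24 liver arrays these were 0.68 and -0.61. Spearman's rho was 0.41 and 0.67 in muscle and 0.29 and -0.21 in liver, where P1 replicate 1 stood apart in both lists as given above. The part of either in the members' values was not tested.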

How the data were processed

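Liver and muscle RNA of Wistar rats was hybridised to Affymetrix rat gene arrays, 4 arrays per liver and 5 per muscle time point. The authors deposited log2 values for 29214 probe sets after RMA background correction, quantile normalisation and summary of the probes, and the submitters' notes name Affymetrix Expression Console for this. RMA compresses differences near the background, and the arrays' number limits the precision. Groups came from the sample labels. Probe sets were named through the platform annotation: 15310 had 1 symbol, 323 several and 13581 none, and 15279 were matched to a RefSeq gene by gene ID. Lists, members and tests were chosen with earlier results of these data known.

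Per tissue, lmFit and eBayes of limma (3.58.1, under R 4.3.3) were applied to all 6 groups, with the Benjamini-Hochberg adjustment over 15310 probe sets and a threshold of 0.05, and were tested on simulated data first. The tissue difference of a change was tested in 1 fit of 54 arrays. Spread is the SD within groups, and co-variation the Pearson r of deviations from group means. All member probe sets are named, and so are the 5 genes most alike to the members' mean deviation. For P1 against F22, up to 4 called genes with the largest differences were chosen per other list and tissue. Genes named from these lists are among them, but not all of them are named. Alternatives were the unadjusted p, 5 time points, other normalisations, a trend and robust prior, array weights, a signal filter, all probe sets, a replicate block, 1 fit of both tissues, rank or median measures, and leaving out each array. Of all pairs of arrays, 0 had identical values.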

Additional observations from a re-analysis of the deposited data

Results flagged for a closer look

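In 4 of 96 combinations of gene, tissue and time point, 1 array lay far from the others of its group, and chance gives this in about 1 in 20 groups (4.8 here). *Egr1* was 9.81 in liver F22 replicate 3, against 10.67 to 10.68 in the other 3 arrays. In muscle at P4, *Atf3* was 9.88 in replicate 1 (8.68 to 8.89 in the others), *Junb* was 9.74 in replicate 2 (9.52 to 9.57) and *Ier2* was 8.12 in replicate 4 (8.40 to 8.51).

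The change differed between the tissues by a test of the difference itself (liver change minus muscle change). Between P1 and F22 this held for *Atf3* (-2.12), *Egr1* (-1.63), *Fos* (-1.21) and *Nr4a1* (-1.05). Between P4 and F16 it held for *Fos* (-1.39), *Atf3* (-1.32), *Egr1* (-1.11), *Nr4a1* (-1.10), *Junb* (-0.66) and *Ier3* (-0.45).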

How the results depend on the processing

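Of 44 called differences of single members, 37 kept their call under every alternative run and 0 changed direction. The 7 others lost it in 60 of 1882 refits over all 44: *Junb* at F22 in liver, *Ier3* at F18, *Junb* at F20 and F22, *Ier2* at F22 and *Jun* at P1 in muscle, and the tissue difference of *Ier3* between P4 and F16. Most refits leave out 1 array, and where it belongs to neither group compared, the difference itself cannot move. The 60 of 1882 is therefore no measure of robustness. With 5 time points, that is without adults, 4 members differed in liver by the F-test instead of 7. Among probe sets above the median signal, 4 members were tested per tissue. Of these 4 passed the F-test in liver and 4 in muscle, 0 at F20 against F16 and 3 at P90 against P4 in liver, and 4 at F20 against F18, 2 at P1 against F22, 1 at P4 against P1 and 4 at P4 against F16 in muscle, and the tissue difference was called for 1 between P1 and F22 and for 3 between P4 and F16. At an unadjusted p of at most 0.05, 3 members were called at P4 against P1 in liver, and 4 at F18, 5 at F20 and 4 at F22 against the earlier point in muscle. Array weights gave 3 at F20 and 1 at P4 against P1 in liver and 4 at F22 in muscle. Centring arrays on their median gave 1 at F18, 4 at F20 and 1 at F22 in muscle, quantile normalisation 1 at F18, the robust prior 4 at F20, all probe sets 1 at F18 and 0 at F22, and 1 fit of both tissues 1 at F22 in muscle and 1 at P4 against P1 in liver. The share of all probe sets was not counted under any alternative, and the cause of these shifts was not tested.

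With the replicate number as a block, 1 member was called at P4 against P1 in liver and 0 at F22 against F20 in muscle. Same-numbered arrays of different time points had deviations that correlated at -0.20 to 0.28 in liver (6 of 60 pairs above 0.1) and at -0.40 to 0.36 in muscle (16 of 75). These correlations cover time points within a tissue, and a pairing of liver with muscle was not checked. The block moved no other count by more than 1.5 times.

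Leaving out single arrays gave 0 to 1 calls at F22 against F20 and 0 to 2 at P4 against P1 in liver, and 1 to 3 at F18, 1 to 4 at F20 and 0 to 3 at F22 in muscle. At P1 against F22 it gave 3 to 4 calls in liver and 4 to 5 in muscle.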

Other observations

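Beside the 8 members, of which 6 were called, other genes of the early response were read in adult liver. There 28.8% of all probe sets were higher than at P4 and 4153 of 15310 were lower. Of 37 other immediate early genes, 20 were higher and 5 lower at P90 than at P4 (median 0.27, against 0.06 over all probe sets), and of 18 feedback inhibitors 9 were higher and 4 lower (median 0.29). The genes named here were chosen after their values were seen. *Dusp1* was higher by 1.77 ± 0.11, *Socs3*, an inhibitor of cytokine signalling, by 1.38 ± 0.09, and *Klf10* by 1.26 ± 0.13. *Per1* was lower (-1.87 ± 0.21), as was *Myc*, a driver of cell growth (-1.47 ± 0.15). The sources used here do not state the hour of collection, and its part in the values of *Per1* was not tested.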
